A study of Mus musculus with 4 samples.

Results

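The Gimap genes encode GTPases of the immunity-associated protein family, small proteins that bind guanine nucleotides and sit on intracellular membranes of lymphocytes. The 8 members measured here, Gimap1, Gimap3, Gimap4, Gimap5, Gimap6, Gimap7, Gimap8 and Gimap9, were chosen by name out of 18194 genes that a probe set names alone, and every probe set whose platform annotation gives 1 of them as its sole gene was taken. This gave 11 of the 45101 probe sets on the array: Gimap4, Gimap6 and Gimap7 had 2 each and the other members 1 each. All 11 passed the filter on low signals, also by the mean of either genotype alone.

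The arrays came from a comparison of KO with wild-type (WT) mouse T cells, made to find genes whose expression depends on genotype in induced regulatory T cells (Treg cells). Naive T cells of the spleen of KO mice (2 arrays) and of WT mice (2 arrays) had been kept for 3 days under conditions that induce Treg cells, and total RNA of each culture was put on a single-colour Affymetrix array. The gene removed in the KO, the strain, the age of the mice, the sort used for naive T cells and the inducing agents are not given in the labels, so the removal itself could not be checked. The source names number the mice of each array (WT1 mice and so on), and the labels do not say how many mice a number stands for or whether the cultures were run apart, so p-values reflect only how far these samples spread, some of which may be technical. The signals are bulk values, in which fewer cells of a type and less RNA per cell cannot be told apart.

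Gimap proteins are known mainly from resting lymphocytes, where they are needed for survival. In rodents, loss of Gimap5 depletes naive T cells, and mature T and B cells need Gimap1. Interferon-inducible GTPases are another group of immune GTPases. The Gimap genes lie side by side in the genome. In the RefSeq gene table all 8 members followed each other on mouse chromosome 6 with 0 other protein-coding genes between them, in the order Gimap8, Gimap9, Gimap4, Gimap6, Gimap7, Gimap1, Gimap5 and Gimap3. By the strands of their start-site windows, 6 are read from the plus strand and 2, Gimap6 and Gimap3, from the minus strand.

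The windows around the start sites of Gimap4, Gimap6 and Gimap7 are shown because these are the members with 2 probe sets, on which the comparison of genotypes turned. Each runs 5′ to 3′ from 250 bases before to 50 bases after the start in RefSeq on GRCm38.p6. Capitals mark the letters AGGAAG, a form of the core bound by ETS factors, and TGTGGT, the core bound by Runx factors, on either strand (CTTCCT and ACCACA on the other one).
Gimap4, chr6:48684328-48684627, plus strand: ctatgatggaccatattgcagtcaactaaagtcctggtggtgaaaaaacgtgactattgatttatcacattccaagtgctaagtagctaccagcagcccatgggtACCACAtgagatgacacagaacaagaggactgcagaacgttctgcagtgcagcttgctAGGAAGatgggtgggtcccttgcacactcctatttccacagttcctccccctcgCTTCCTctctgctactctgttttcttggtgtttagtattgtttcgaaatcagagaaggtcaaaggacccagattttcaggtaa
Gimap6, chr6:48708195-48708494, minus strand: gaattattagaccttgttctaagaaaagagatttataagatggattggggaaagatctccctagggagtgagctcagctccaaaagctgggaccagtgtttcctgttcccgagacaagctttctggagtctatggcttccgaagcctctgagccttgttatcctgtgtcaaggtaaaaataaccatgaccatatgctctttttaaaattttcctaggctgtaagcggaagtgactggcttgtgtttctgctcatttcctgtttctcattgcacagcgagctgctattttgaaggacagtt
Gimap7, chr6:48718371-48718670, plus strand: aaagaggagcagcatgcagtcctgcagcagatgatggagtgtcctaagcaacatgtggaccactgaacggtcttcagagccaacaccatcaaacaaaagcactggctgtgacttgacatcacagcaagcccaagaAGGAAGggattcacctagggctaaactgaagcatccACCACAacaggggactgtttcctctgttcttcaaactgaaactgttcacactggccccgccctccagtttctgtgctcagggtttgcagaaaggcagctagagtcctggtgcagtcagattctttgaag
The ETS letters were found in 7 and the Runx letters in 3 of the 9 windows of the family, which cover all 8 genes with Gimap8 having 2 start sites. Of all 32851 windows of 300 bases in the table, 35.4% held the ETS letters and 16.8% the Runx letters, and no match of one motif overlapped the other in the 3 windows shown. Gimap4 and Gimap7 held both of these strings of letters and Gimap6 held neither. Other forms of the cores bound by ETS and Runx factors were not searched for. These matches are a description of the letters only.

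By the brightest probe set of each gene, most of the family was measured at similar signals in KO and WT cells. The dimmer probe sets of Gimap6 and Gimap7 were at log2 fold changes of -0.68 and -0.83. On the log2(signal + 16) scale, 1 of the 11 Gimap probe sets passed the adjusted p threshold of 0.05 (limma, Benjamini-Hochberg over all tested probe sets), against 17.1% of the 27022 tested probe sets. That probe set, the dimmer one of Gimap6, was lower in KO cells, so that 1 of 11 was called lower (9.17% of all tested) and 0 of 11 higher (7.89% of all tested). With 1 probe set per gene, the one with the highest mean, 0 of the 8 genes were called, against 20.4% of 12547 genes, and 1 of the 8, Gimap4, had an unadjusted p under 0.05. With so few members, these counts do not set the family apart from all tested probe sets. The median log2 fold change of KO over WT was -0.074 over the 8 genes and -0.079 over all tested probe sets. The sign of the family median rested on single WT arrays, as it was -0.24 without WT array 1 and 0.11 without WT array 2. The median absolute log2 fold change was 0.13 over the 8 genes, 0.22 over the 11 Gimap probe sets and 0.33 over all tested probe sets. For 9 of the 11 probe sets, and all 8 chosen ones, the 95% interval of the fold change lay within a 2-fold change in either direction, as it did for 53.5% of all tested probe sets. For 6 of the 11 it lay within 1.5-fold, against 22.6% of all tested. These comparisons were matched neither for signal nor, for the 8 genes, to 1 probe set per gene. Most Gimap signals were far above the array medians of 56.5 to 62.6, and dim signals vary more between arrays. Whether the family changed less than other genes of like signal was not tested. Signals of different probe sets depend on the probes as well as on RNA level, so the members are not ranked by level here.

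**Figure D1:**
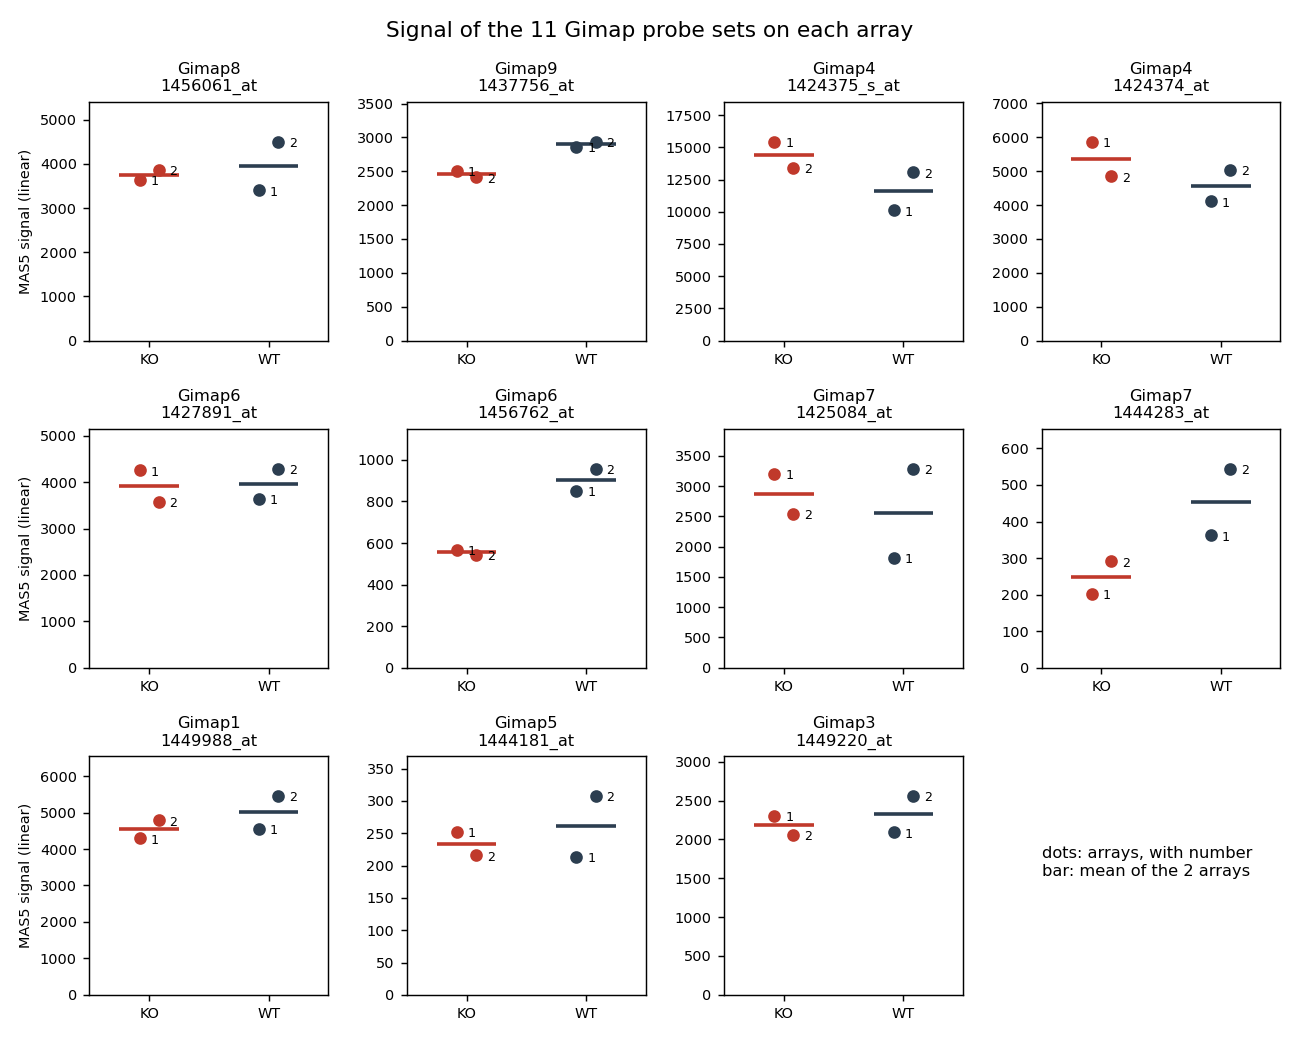
MAS5 signal (linear, in arbitrary units, vertical axes from 0) of the 11 Gimap probe sets in cluster order, with KO arrays on the left and WT arrays on the right of each panel. Dots are single arrays with their number and bars are means of 2 arrays. The dots of the genotypes overlap in 7 panels, and in the panel of Gimap6 1456762_at both KO arrays, at 568 and 544, lie below both WT arrays, at 851 and 957.

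Gimap1, which mature lymphocytes of mice need for their survival, had signals of 4289 and 4782 on the KO arrays, against 4554 and 5455 on the WT arrays. The genotypes overlapped, and the log2 fold change was -0.14 with a 95% interval of -0.41 to 0.13 (limma, adjusted p = 0.477). Gimap5, a lysosomal member whose loss shortens the life of rodent T cells, had signals of 252 and 216 on the KO arrays, against 214 and 308 on the WT arrays. Both KO values lay between the WT values, and the interval was wide, from -0.68 to 0.42 around a log2 fold change of -0.13 (adjusted p = 0.759). Gimap3, the closest relative of Gimap5 in the mouse, had signals of 2303 and 2061 on the KO arrays, against 2092 and 2559 on the WT arrays. The KO values again overlapped the WT range, with a log2 fold change of -0.086 (interval -0.39 to 0.22, adjusted p = 0.712). Gimap3 and Gimap5 are similar in sequence, and whether their probe sets share signal was not tested.

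Gimap8, the largest protein of the family with several GTPase domains in 1 chain, had signals of 3647 and 3866 on the KO arrays, against 3407 and 4507 on the WT arrays. The KO arrays lay inside the WT range, and the log2 fold change was -0.061 (interval -0.38 to 0.26, adjusted p = 0.81). Gimap9 had signals of 2511 and 2412 on the KO arrays, against 2866 and 2938 on the WT arrays. Here both KO arrays lay below both WT arrays, by a small step: the log2 fold change was -0.24 ± 0.10 (± SE), a KO signal of 0.849 times the WT signal, and the call was missed (adjusted p = 0.163). Its interval of -0.47 to 0.0025 reached 0 and left room for a fall to 0.72 of the WT signal.

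Gimap4, a member linked to T cell death and to cytokine secretion, was measured by a pair of probe sets that ran the same way. The brighter one, 1424375_s_at, had signals of 15451 and 13401 on the KO arrays, against 10122 and 13071 on the WT arrays. Its KO values lay above both WT values, by a narrow gap between the lower KO and the higher WT array, and the log2 fold change was 0.32 ± 0.13, or 1.25-fold (interval 0.022 to 0.62, unadjusted p = 0.0385, limma adjusted p = 0.135). The suffix of that probe set marks probes that can match more than 1 transcript. The other, 1424374_at, had 5872 and 4850 on the KO arrays, against 4108 and 5037 on the WT arrays, with overlapping groups and a log2 fold change of 0.23 ± 0.14 (adjusted p = 0.29). Neither passed the threshold.

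Gimap6, which binds a protein of the Atg8 family and takes part in autophagy, gave different values at its 2 probe sets. The brighter one, 1427891_at, had signals of 4257 and 3575 on the KO arrays, against 3647 and 4290 on the WT arrays. The groups overlapped almost fully, and the log2 fold change was -0.02 ± 0.13 (interval -0.31 to 0.27, limma adjusted p = 0.938). The dimmer one, 1456762_at, had 568 and 544 on the KO arrays, against 851 and 957 on the WT arrays. It fell in KO cells, with both KO arrays well below both WT arrays, by 0.68 ± 0.15 on the log2 scale (WT signal 1.60 times the KO signal, interval -1.02 to -0.35, adjusted p = 0.0157). This call was lost without the dependence of the variance on intensity (adjusted p = 0.0868) and without WT array 2 (adjusted p = 0.0992).

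Gimap7, whose human counterpart activates the GTPase of another member by pairing with it, showed a similar split. The brighter probe set, 1425084_at, had signals of 3202 and 2542 on the KO arrays, against 1814 and 3285 on the WT arrays. The WT arrays spanned the KO arrays, and the log2 fold change was 0.22 ± 0.25 (interval -0.34 to 0.78, limma adjusted p = 0.586). Its value rested on single WT arrays, being -0.20 without WT array 1 (adjusted p = 0.532) and 0.65 without WT array 2 (adjusted p = 0.0409, a call). That call was lost when the filter on low signals was recomputed on the 3 arrays left (adjusted p = 0.0522). The dimmer probe set, 1444283_at, had 202 and 291 on the KO arrays, against 362 and 544 on the WT arrays. Both KO arrays were below both WT arrays, with a log2 fold change of -0.83 ± 0.26 that missed the threshold (adjusted p = 0.06, interval -1.42 to -0.24). It passed when KO array 2 was left out (-1.08, adjusted p = 0.0326) and when WT array 1 was left out (-1.11, adjusted p = 0.0279).

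Whether the probe sets of 1 gene differed in their response to genotype was tested on their ratio within each array, which does not depend on how the arrays were scaled apart from the added 16. This test was added after the values had been seen. For Gimap6 the log2 ratio of the brighter to the dimmer probe set was 2.87 and 2.68 on the KO arrays, against 2.08 and 2.15 on the WT arrays. For Gimap7 it was 3.88 and 3.06 on the KO arrays, against 2.28 and 2.56 on the WT arrays. For both genes the ratio was thus higher on both KO arrays than on either WT array. The 2 probe sets of Gimap4 kept nearly the same log2 ratio, 1.39 and 1.46 on the KO arrays against 1.30 and 1.37 on the WT arrays. The difference of the log2 fold changes was 0.66 ± 0.19 for Gimap6 (interval 0.15 to 1.18, unadjusted p = 0.0216, limma adjusted p = 0.244) and 1.05 ± 0.34 for Gimap7 (interval 0.16 to 1.95, unadjusted p = 0.0298, adjusted p = 0.261). For Gimap4 it was 0.093 ± 0.19 (adjusted p = 0.869). In this limma fit 0 of the 10262 pairs of probe sets passed the adjusted threshold (0%), and 1637 pairs (16%) had an unadjusted p under 0.05. So a difference between the probe sets of Gimap6 or Gimap7 was not called, although both intervals left out 0 before adjustment.

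**Figure D2:**
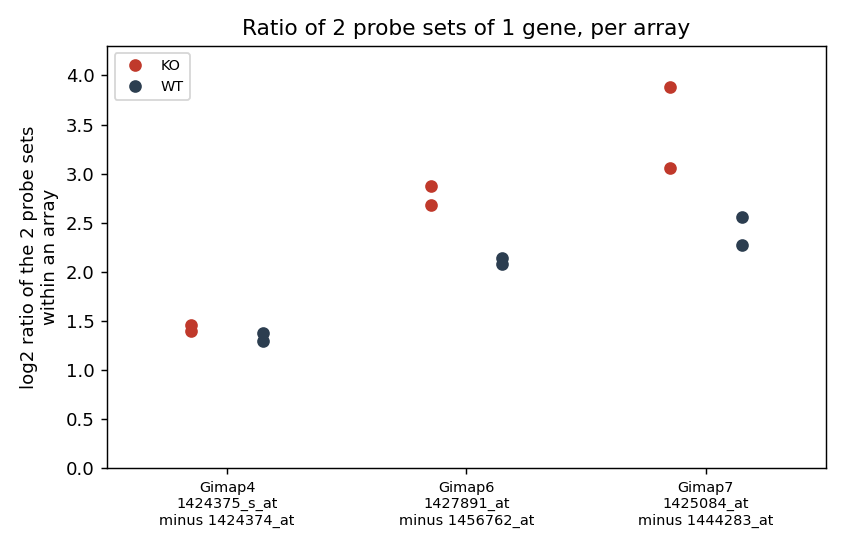
Log2 ratio of the brighter to the dimmer probe set within each array (vertical axis) for the 3 Gimap genes with 2 probe sets (horizontal axis), with KO arrays on the left and WT arrays on the right. Dots are single arrays. For Gimap6 and Gimap7 both KO arrays lie above both WT arrays, at 2.68 to 2.87 against 2.08 to 2.15 and at 3.06 to 3.88 against 2.28 to 2.56.

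For most members the WT arrays differed by more than the genotype means did. The absolute difference between the WT arrays exceeded that between the genotype means at 8 of the 11 Gimap probe sets, against 35.9% of all tested probe sets. A difference between single arrays varies more than one between means of 2 arrays, so the measures are not alike. All 11 were higher on WT array 2 than on WT array 1, by a median of 0.29 on the log2 scale, while 52.3% of all tested probe sets were, by a median of 0.016. On the KO arrays 8 of the 11 were higher on array 1, by a median of 0.16, against 48.2% of all tested. The WT difference was greatest among the Gimap probe sets at 1425084_at of Gimap7 (0.85) and least at Gimap9 (0.036). Averaged over the 8 genes, the log2(signal + 16) level was 11.51 on KO array 1 and 11.39 on KO array 2, against 11.28 on WT array 1 and 11.65 on WT array 2. The KO arrays therefore lay between the WT arrays. Groups did not overlap at 4 of the 11 probe sets, against 60.2% of all tested: KO arrays were both above at 1 (25.1% of all tested) and both below at 3 (35.1% of all tested).

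**Figure D3:**
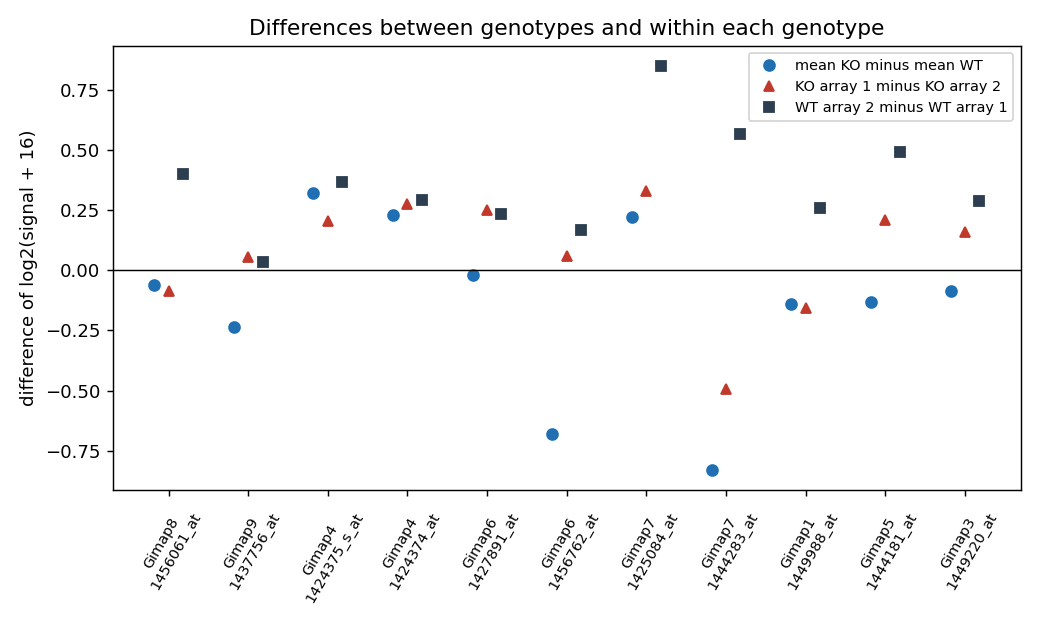
Differences of log2(signal + 16) for each Gimap probe set (horizontal axis, cluster order): mean of KO minus mean of WT arrays (circles), KO array 1 minus KO array 2 (triangles) and WT array 2 minus WT array 1 (squares). All 11 squares lie above 0, at 0.036 to 0.85, while the circles lie on both sides of 0, at -0.83 to 0.32.

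The summed signal of the B cell markers had the same order over the 4 arrays as the family's mean level, which was noticed after the values were seen, and not every marker had it. Gimap genes are known to be expressed in B cells as well as in T cells. Of 5 B cell markers 4 were measured by a probe set of their own and 3 of these were tested, with 0 called in either direction and 0 at an unadjusted p under 0.05 (limma). Without WT array 1, Ms4a1 was called lower (-1.34, adjusted p = 0.0238). Their summed signal was 987 on KO array 1 and 687 on KO array 2, against 469 on WT array 1 and 1093 on WT array 2. The tested markers were Cd79a and Cd79b, the signalling chains of the B cell receptor, and Ms4a1, the CD20 gene. Cd79b and Ms4a1 had that order, and Cd79a and Pax5 did not. Cd79a had signals of 156 and 67.5 on the KO arrays, against 45.5 and 90.3 on the WT arrays, highest on KO array 1. Cd79b had signals of 648 and 476 on the KO arrays, against 358 and 651 on the WT arrays, and Ms4a1 had 148 and 107 on the KO arrays, against 62.4 and 344 on the WT arrays. Pax5, the B cell lineage factor, was dim throughout at 34.9 and 36.1 on the KO arrays, against 3.23 and 7.40 on the WT arrays, and was not tested. The part of these markers in the Gimap signals was not tested.

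Several genes next to the cluster passed the test. Of the 6 protein-coding genes on each side, 9 were measured by a probe set of their own and 6 of these were tested. One of them, Aoc1, passed the filter on low signals only through the KO arrays and is left out of the count. Of the other 5, 2 rose and 1 fell in KO cells. With 1 probe set per gene over all genes, 10.5% were called higher and 9.95% lower. Beside Gimap3 lie Tmem176b and Tmem176a, which encode related membrane proteins reported to act as cation channels. Tmem176b had signals of 1008 and 1023 on the KO arrays, against 204 and 386 on the WT arrays, a log2 fold change of 1.80 ± 0.26 (limma adjusted p = 0.00253). The brightest of the 3 probe sets of Tmem176a, 1423909_at, had 641 and 597 on the KO arrays, against 91.2 and 148 on the WT arrays (2.26 ± 0.24, adjusted p = 0.000584). Its others were at 2.06 ± 0.31 (1441811_x_at, limma adjusted p = 0.00295) and 1.08 ± 0.35 (1425603_at, adjusted p = 0.0665, not called). Aoc1, a diamine oxidase gene on the same side, had dim signals of 68.3 and 106 on the KO arrays, against 17.96 and 1.80 on the WT arrays (2.05 ± 0.50, adjusted p = 0.0253, and 1.03 with 64 added in place of 16). Its mean log2(signal + 16) was 6.67 on the KO arrays and 4.62 on the WT arrays, against 5.62 at the filter, so that it could be tested only by being high in KO cells, and its call was lost without the filter on low signals and when either KO array or WT array 2 was left out. On the other side Zfp775, the neighbour of Gimap8, was at -0.10 ± 0.17 (adjusted p = 0.734). Repin1 was at 0.63 ± 0.18 at its brightest probe set (adjusted p = 0.05002, and called higher under 8 of 18 other settings). Its probe set 1434043_a_at was at 0.38 ± 0.21 (limma adjusted p = 0.267). Lrrc61, the one that fell, was at -0.66 ± 0.15 (adjusted p = 0.0193). The call of Lrrc61 was lost without KO array 1 or WT array 1 (and without WT array 2 under the recomputed filter), and the calls of Tmem176b, Aoc1 and Lrrc61 without the dependence of the variance on intensity. Differences between the members' changes and those of their neighbours were not tested.

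**Figure D4:**
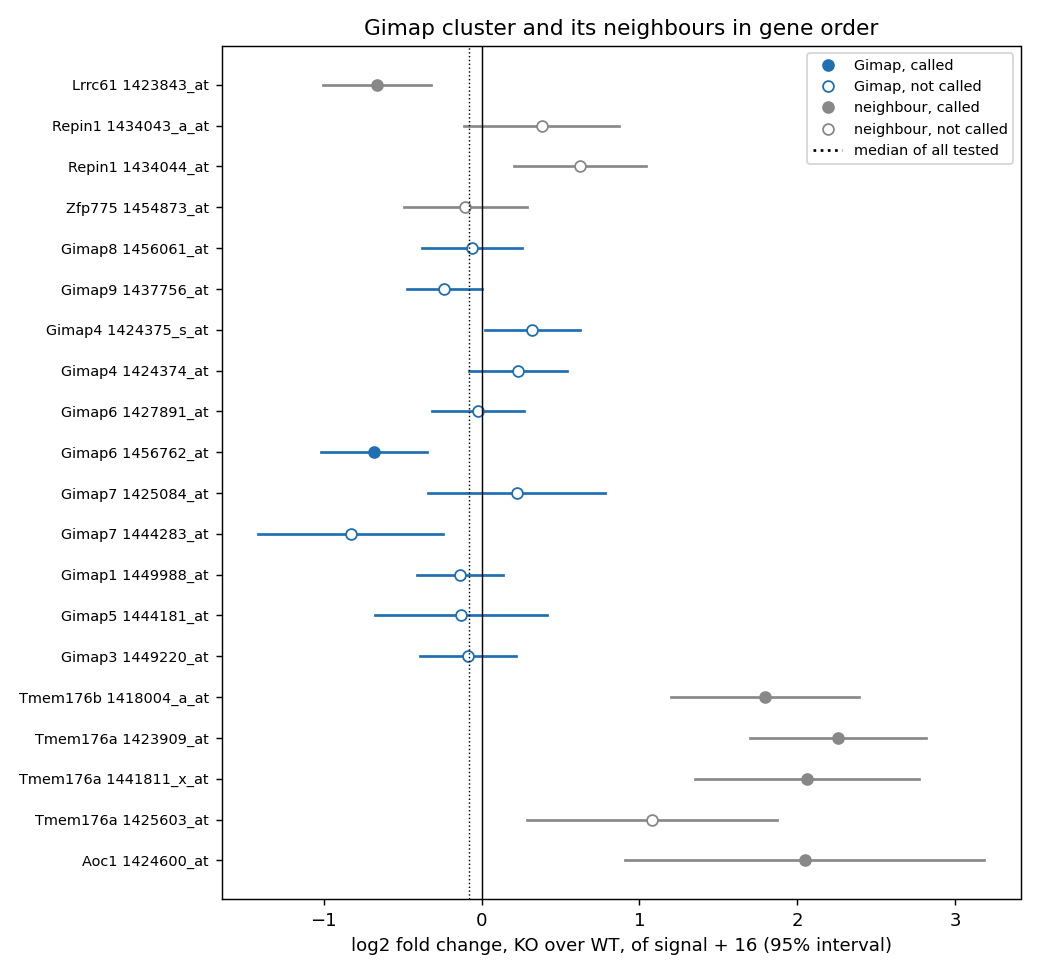
Log2 fold change of KO over WT of signal + 16 with its 95% interval (horizontal axis) for the Gimap probe sets (blue) and the tested probe sets of neighbouring genes (grey), from top to bottom in gene order on chromosome 6. Filled dots passed an adjusted p of 0.05, and the dotted line is the median of all tested probe sets (-0.079). The Gimap probe sets lie between -0.83 and 0.32, with the called one of Gimap6 at -0.68. Tmem176b, Tmem176a and Aoc1 lie at 1.08 to 2.26, Lrrc61 at -0.66, Zfp775 at -0.10 and Repin1 at 0.38 and 0.63. Aoc1 passed the filter on low signals only through the KO arrays. The Tmem176a probe set at 1.08 was not called.

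Genes that share a known context with the family were counted in the same fit with 1 probe set per gene. Over all genes 10.5% were called higher and 9.95% lower. Of 18 tested genes of naive and resting T cells, the state in which Gimap genes are known to be high, 1 (Dapl1) passed the filter on low signals only through the WT arrays. Of the other 17, 8 fell and 2 rose. Klf2, a quiescence factor, had signals of 4582 and 4355 on the KO arrays, against 10819 and 12022 on the WT arrays (-1.35 ± 0.097, adjusted p = 8.05e-05). Il7r went the other way, with 12420 and 10236 on the KO arrays, against 2494 and 3311 on the WT arrays (1.97 ± 0.15, limma adjusted p = 0.000107). The 8 chosen Gimap probe sets had a median of -0.074, and 0 of them passed. Of 9 tested interferon-inducible GTPase genes 4 rose, 5 did not pass and 0 fell, at a median of 0.38. Gbp6 had signals of 5137 and 4881 on the KO arrays, against 1045 and 1680 on the WT arrays (1.90 ± 0.20, adjusted p = 0.000448), and Iigp1 was at 1.74 ± 0.12.

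Some Gimap proteins have been reported to bind members of the Bcl2 family, which control cell death at mitochondria. Of 13 tested Bcl2 family genes 3 rose, 2 fell and 8 did not pass, at a median log2 fold change of -0.21, beside 10.5% of all genes called higher and 9.95% lower. Bcl2l2, a survival gene, was at 1.57 ± 0.22. Pmaip1 (1.48 ± 0.20) and Bmf (1.24 ± 0.29), which promote cell death, rose too. The 2 genes that fell, Bbc3 (-1.23 ± 0.19) and Bcl2l11 (-0.69 ± 0.11), also promote cell death. The call of Bmf was lost without KO array 2 or WT array 1, without the filter on low signals and without the intensity trend. Bcl2 itself was at -0.21 ± 0.12 (limma adjusted p = 0.278). Of 26 tested genes of the Atg8 family and of autophagy, in which Gimap6 takes part, 1 rose (Gabarapl1, 0.48 ± 0.14), 1 fell (Wipi2, -0.78 ± 0.13) and 24 did not pass, at a median of -0.044. Gabarapl2, the Atg8 protein that binds Gimap6, was at -0.081 ± 0.097 (adjusted p = 0.624). The call of Gabarapl1 was lost under several other settings, among them each omission of a single array, and that of Wipi2 without the intensity trend (adjusted p = 0.063). These counts, too, stand beside 10.5% of all genes called higher and 9.95% lower.

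Over the 4 arrays, the profiles most like that of Gimap4 1424375_s_at, the Gimap probe set with the highest mean signal, were those of Dhx37, Eapp, Rbm15b, Elmo2 and Unc13d. Their Euclidean distance to it, on log2(signal + 16) centred on each probe set's mean, was 0.018 to 0.050. Eapp, for example, had signals of 3065 and 2653 on the KO arrays, against 2061 and 2583 on the WT arrays. As for that Gimap4 probe set, KO array 1 was highest and WT array 1 lowest in all 5. In these 5, WT array 2 exceeded WT array 1 by 0.32 to 0.42 on the log2 scale. Their log2 fold changes were 0.29 to 0.33, beside a median absolute change of 0.33 over all tested probe sets, and 0 of 5 were called by limma. The 5 genes were chosen by that distance on these same arrays. Their array order, WT difference and fold changes therefore follow largely from the choice and are not separate findings. With only 4 arrays there is little to tell profiles apart.

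The cultures of both genotypes expressed T cell markers. Of 9 T cell and Treg markers 9 were tested, and their summed signal was 77507 and 77541 on the KO arrays, against 49915 and 49034 on the WT arrays, with 5 higher, among them Cd3g (1.26 ± 0.084) and Il2ra (0.99 ± 0.12), and 2 lower, among them Foxp3 (-1.03 ± 0.13). Some markers of other cells rose in KO cells, where 10.5% of all genes were called higher. Of 6 tested mast cell and basophil markers 4 passed the filter on low signals only through the KO arrays, and of the other 2, Mcpt8 rose and Kit was not called. The 6 markers summed to 11732 and 7879 on the KO arrays, against 712 and 896 on the WT arrays. CD8 markers (2 of 2 rose) summed to 2653 and 2196 on the KO arrays, against 881 and 924 on the WT arrays, and myeloid markers (3 of 4 tested rose) to 1310.4 and 1159.7 on the KO arrays, against 318 and 411 on the WT arrays. NK cell markers (0 of 1 tested called, that 1 passing the filter only through the KO arrays) summed to 120.0 and 107 on the KO arrays, against 67.5 and 59.0 on the WT arrays, and endothelial markers (1 of 2 tested rose, Pecam1, called under 9 of 17 other settings) to 473 and 434 on the KO arrays, against 321 and 273.5 on the WT arrays. None of these summed levels placed the KO arrays between the WT arrays as the Gimap mean did, and their part in the Gimap values was not tested. Over all tested probe sets log2 signals correlated at r = 0.977 between the KO arrays and at r = 0.979 between the WT arrays, against 0.933 to 0.941 across genotypes, over probe sets that are not independent replicates.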

How the data were processed

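The deposited file gives a linear intensity value for each probe set and array. The submitters' processing notes name MAS5, a method that turns the probes of a probe set into 1 signal; its version and settings are not given in the sources used here. With 2% of the probe sets left out at each end, the mean was 500.0 on every array, so differences in total RNA per cell were removed. Dim signals vary strongly between arrays, and the number of arrays limits precision. Per the labels' protocols, biotin-labelled cRNA was made from 6 micrograms of Trizol-extracted RNA.

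Gene names came from the platform annotation (34958 probe sets name 1 gene, 932 several and 9211 none), and all 8 Gimap gene identifiers were in the RefSeq table of GRCm38.p6. Groups were taken from the titles. Control probe sets (64) and then the dimmest 40%, by mean log2(signal + 16), were dropped. The KO minus WT difference of log2(signal + 16) was fitted with limma 3.58.1 in R 4.3.3 (lmFit, and eBayes with an intensity trend), two-sided, with Benjamini-Hochberg adjustment over all 27022 probe sets. The fit had 2 residual and 6.41 prior degrees of freedom. Intervals are 95% intervals of that fit, unadjusted. With 2 arrays a group, exact permutation reaches no p under 0.333. Fold changes are of signal + 16 and so understate those of dim probe sets. Ratios of probe sets of 1 gene were fitted in limma without a trend. The scripts were tested on simulated data. The members and lists were chosen with earlier results of these data known. Named genes were all members, their tested neighbours, up to 3 called genes with the largest change per list and the 5 nearest profiles. Genes named beyond the rule, chosen after their values were seen, were the B cell markers, Bcl2, Bbc3, Bcl2l11, Gabarapl2 and Kit. Alternatives were other pseudocounts, filters, scalings and variance models, a block for the array number, omission of probe sets with suffixes for shared or cross-hybridising transcripts, and leaving out each array in turn.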

Additional observations from a re-analysis of the deposited data

How the results depend on the processing

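Directions and calls below refer to KO over WT. The variance model moved most. When the trend was dropped, 1183 calls were made in all, 727 higher and 456 lower, against 4608, 2131 higher and 2477 lower. In that fit 0 Gimap probe sets were called, with 2 at an unadjusted p under 0.05, and the calls of Foxp3 and Il2ra were lost. Of the naive and resting genes 3 were then lower and 1 higher, and of the T cell and Treg markers 0 and 1. Leaving out 1 array at a time gave 2786 to 4387 calls in all, 2786 without WT array 2 and 3032 without WT array 1, and 1 to 2 Gimap calls. The 1 call without WT array 2 was another probe set, 1425084_at of Gimap7, which was higher. These omissions kept the probe sets tested on all 4 arrays. That choice was made after seeing the data: the filter was first recomputed on the 3 arrays left, which gave 2575 to 4484 calls in all and 0 to 2 Gimap calls, 0 without WT array 2, with 4 at an unadjusted p under 0.05 (limma). The Gimap calls came to 2, both lower, with median centring, with the replicate block, and without the suffixed probe sets, always with 1444283_at of Gimap7 as the addition. The other pseudocounts, filters and quantile normalization kept the count at 1. The called probe set of Gimap6 kept its direction under all 18 alternatives, those with the recomputed filter included, at log2 fold changes of -0.77 to -0.60, and its call under 15.

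Signs turned at 5 probe sets, and no turned value was called. The brighter probe set of Gimap6 was at 0.021 with median centring, and at -0.15 to 0.11 over the omissions of 1 array. Over the same omissions 1425084_at of Gimap7 lay at -0.20 to 0.65, Gimap8 at -0.26 to 0.14, Gimap5 at -0.38 to 0.12 and Gimap3 at -0.23 to 0.058. The median over the 8 genes was -0.24 without WT array 1 and 0.11 without WT array 2, and it moved by less than 0.19, the SD within groups of their mean level, under every alternative. Same-numbered arrays did not deviate together (r = 0.01 across probe sets), so the numbers were not taken to pair the samples. With the replicate block 5382 probe sets were called, and 1444283_at of Gimap7 was at an adjusted p of 0.0129 (limma). A block with the numbers crossed, tried after seeing the data, gave 4022 calls and 1 Gimap call. The SE of the log2 fold change was 0.26 and 0.25 at the dimmer and brighter probe sets of Gimap7 and 0.24 at Gimap5, and 0.10 to 0.15 at the other Gimap probe sets.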
